A study of Mus musculus with 41 samples.

Results

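MLL3/4 occupancy in cultured keratinocytes carrying wild-type SOX9 was compared without and with doxycycline (DOX), using the 2 deposited CUT&RUN (CNR) peak lists pooled over replicates. The list without DOX held 33975 peaks and the list with DOX held 10543 outside the mitochondrial sequence, together 44518 of the 328085 such peaks in the 18 lists of the series. A peak without DOX that overlapped a DOX peak by at least 1 bp was called kept and otherwise lost, and a DOX peak that overlapped no peak of the untreated cells was called gained. Both groups were keratinocytes of mouse back skin of strain CD1, labelled male, with the genotype K14rtTA; TRE-myc-Sox9. In these cells the Krt14 promoter drives the tetracycline activator in basal epidermal cells, and the activator turns on a MYC-tagged wild-type SOX9 (WT-SOX9) when DOX is present. The DOX group received 1 µg/ml, for a time that the labels do not give, and the other group carried the same transgene without the drug. The study's methods describe cultured cells transduced with SOX9 variants and selected, so each group is a selected culture and not sorted skin. The labels name 2 samples for each group. The titles of the DOX samples call them replicates 1 and 2, but their descriptions both say biological replicate 2, which leaves unsure what replicates stand behind that list. With 1 pooled list per group no replicate error could be computed and no test was run. The 95% Wilson intervals given for shares cover counting error only.

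MLL3 and MLL4 (genes Kmt2c and Kmt2d) are the methyltransferases that place monomethylation on histone H3 lysine 4 at enhancers, where they work with the demethylase UTX and with histone acetyltransferases. Their arrival usually accompanies the opening of an enhancer. SOX9 is a pioneer factor of the high mobility group family that specifies hair follicle stem cells (HFSCs), whereas interfollicular epidermal stem cells (EpdSCs) rely on TP63, AP1, KLF, GATA3 and GRHL factors at their enhancers. The comparison asks where MLL3/4 was found before SOX9 was induced, where it was found afterwards, and how far the sites where it appeared coincided with SOX9 itself, read from MYC-tag CNR of WT-SOX9 cells with DOX.

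The signal in both MLL3/4 lists is unscaled coverage, and its level differed throughout. The region of highest total signal in both lists, satellite repeat DNA at chr2:98666236-98667335 of mm10, had a total signal (coverage summed over its bases) of 877727 without DOX and 223945 with DOX, a ratio of 0.255. Over the 3 mitochondrial peaks of each list the same ratio was 0.185. These sequences are not enhancers, so reads or enrichment per library and MLL3/4 occupancy cannot be told apart from the number of peaks. SEACR, the peak caller, ranked regions within each track, and the weakest listed peak had a total of 852 without DOX and 755 with DOX. The 3 highest peaks of the DOX list were mostly repeat sequence and had a peak in every cultured list.

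The Sox9 gene itself showed a feature that bears on the DOX list. Without DOX, 3 MLL3/4 peaks lay in Sox9, and the first ranked 97 of 33975 with a total signal of 24363. They followed the coding exons. The first peak began at position 112782586 of chromosome 11, where the coding sequence begins at 112782585, the second spanned 112783810 to 112784065 over an exon of 112783809 to 112784062, and the third ended at 112785499, where the coding sequence ends at 112785507. Reads from a Sox9 cDNA transgene and from the endogenous exons cannot be told apart in these lists. A peak over each of the first 2 coding exons was present in 8 of the 8 other cultured lists, including the MYC-tag list of WT-SOX9 with DOX. In skin the MLL3/4 lists of D0 and of 1 week of DOX had them too, whereas the MLL3/4 list of 2 weeks and the SOX9 list of 1 week held 0 peaks in the gene. The MLL3/4 list of WT-SOX9 with DOX held 0 peaks in Sox9, although the satellite ratio would scale the first peak to a total of 6216, above the 755 of its weakest listed peak. Why these peaks were missing was not tested, and counts of lost peaks that include Sox9 are given below with and without it. The origin of the list labelled WT-SOX9 with DOX from the labelled cells cannot be checked at this gene. If it came from other cells, every lost and gained share below would compare other groups than the labels name. Elsewhere in the genome, 34.9% (34.0 to 35.8) of its peaks overlapped the MYC-tag list of WT-SOX9 with DOX, 29.8% that of dTA-SOX9, 8.20% that of dHMG-SOX9 and 6.55% that of the untreated cells. In the same order these tag lists held 6671, 11341, 3980 and 2242 peaks, and the shares were not adjusted for list length. What they mean for the origin of the list was not tested. Of its gained peaks, 53.5% overlapped the MYC-tag list of WT-SOX9 with DOX, over 0.534% for the same peaks moved 10 kb.

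Sequence windows illustrate the words counted further below, and were picked because they hold them. Each window below is 101 bp long, is centred on the stretch of highest coverage, reads 5′ to 3′ on the plus strand of mm10 (GRCm38.p6), and shows matched words in capitals. The first set holds 4 of the highest ranked gained peaks with both a SOX word in the window and binding of tagged WT-SOX9. The SOX word searched was CCATTGT or CCTTTGT or GCATTGT or GCTTTGT on either strand, the core that SOX factors contact in the minor groove.
Gained, chr10:88834392-88834492, 7638 bp from a start of Utp20, rank 9 in the DOX list: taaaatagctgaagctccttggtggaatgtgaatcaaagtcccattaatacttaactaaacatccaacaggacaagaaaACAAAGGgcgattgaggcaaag
Gained, chr6:60442109-60442209, intergenic, rank 38: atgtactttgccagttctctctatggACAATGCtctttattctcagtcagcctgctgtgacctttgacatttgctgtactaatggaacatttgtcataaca
Gained, chr8:88263223-88263323, 9130 bp from a start of Adcy7, rank 41: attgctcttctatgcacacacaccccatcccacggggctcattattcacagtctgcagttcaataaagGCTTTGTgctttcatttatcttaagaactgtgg
Gained, chr2:61246778-61246878, intergenic, rank 62, with 2 words: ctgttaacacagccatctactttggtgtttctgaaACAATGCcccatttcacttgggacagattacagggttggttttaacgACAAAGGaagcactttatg

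The next windows are 4 of the highest ranked gained peaks with a MYC-tag peak and a facing SOX pair. A facing pair was defined as ACAAAG or ACAATG followed after 3 to 5 letters by CATTGT or CTTTGT, so that both sites point inward, an arrangement that SOX9 is known to bind as a dimer. Capitals mark the pair and any SOX word. These examples were chosen after the counts of pairs were seen.
Gained, chr11:34739107-34739207, intron, nearest protein-coding start Dock2: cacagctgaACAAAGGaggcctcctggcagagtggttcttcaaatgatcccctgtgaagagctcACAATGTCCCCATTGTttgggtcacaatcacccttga
Gained, chr3:63145085-63145185, intergenic, nearest start Mme: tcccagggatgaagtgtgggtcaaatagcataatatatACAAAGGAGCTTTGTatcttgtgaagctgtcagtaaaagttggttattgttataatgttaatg
Gained, chr12:72323887-72323987, intron, nearest start Rtn1: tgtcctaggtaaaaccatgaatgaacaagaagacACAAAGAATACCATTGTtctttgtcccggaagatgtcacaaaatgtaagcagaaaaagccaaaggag
Gained, chr1:64875387-64875487, intron, nearest start Plekhm3: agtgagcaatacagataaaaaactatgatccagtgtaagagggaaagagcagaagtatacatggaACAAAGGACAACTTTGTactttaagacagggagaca

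Peaks of the untreated cells, lost and kept alike, often held another word. The AP1 word, TGACTCA or TGAGTCA, is the site of FOS and JUN dimers, which act at epidermal enhancers. Shown are 3 of the highest ranked lost peaks outside promoters with an AP1 word, chosen after the word counts were seen, and then the highest ranked lost promoter peak, which lay at the start of the antisense transcript Gm14508.
Lost, chr12:25861149-25861249, intergenic, rank 161 in the no-DOX list: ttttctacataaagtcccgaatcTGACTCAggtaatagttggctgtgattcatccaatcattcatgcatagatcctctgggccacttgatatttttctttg
Lost, chr7:88468781-88468881, intron, nearest start Rab38, rank 303: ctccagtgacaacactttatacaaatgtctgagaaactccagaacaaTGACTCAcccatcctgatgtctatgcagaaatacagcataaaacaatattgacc
Lost, chr4:129055221-129055321, intron, 3000 bp from a start of Rnf19b, rank 341: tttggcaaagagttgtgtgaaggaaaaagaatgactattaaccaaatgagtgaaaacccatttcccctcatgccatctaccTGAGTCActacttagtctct
Lost promoter, chr5:116009498-116009598, rank 89: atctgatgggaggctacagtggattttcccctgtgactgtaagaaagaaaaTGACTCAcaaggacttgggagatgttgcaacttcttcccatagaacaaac

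The last windows are 2 of the 10 highest kept peaks, both with a SOX word and a MYC-tag peak with DOX. The first also had a MYC-tag peak without DOX, and the second did not. The second lay 29083 bp from a start of Plec, which encodes plectin, the linker of keratin filaments to hemidesmosomes.
Kept, chr2:110710345-110710445, intron of Ano3, rank 5 in the DOX list: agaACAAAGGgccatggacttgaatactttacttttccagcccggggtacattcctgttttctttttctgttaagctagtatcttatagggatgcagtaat
Kept, chr15:76158910-76159010, intergenic, rank 7: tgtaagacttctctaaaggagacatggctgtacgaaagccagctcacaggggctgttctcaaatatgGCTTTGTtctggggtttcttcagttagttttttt

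Most MLL3/4 peaks of the untreated cells were not found after SOX9 induction. Of the no-DOX peaks, 27849 of 33975 were lost (82.0%, 95% interval 81.6 to 82.4), and of the DOX peaks 4403 of 10543 were gained (41.8%, 40.8 to 42.7). The no-DOX list was 3.22 times as long. Overlap was nearly one to one, since 6025 of the 6126 kept no-DOX peaks met exactly 1 DOX peak. Loss depended on signal. It went from 95.9% in the lowest decile of total signal to 77.2% in the eighth decile, 61.8% in the ninth and 33.7% (32.1 to 35.3) in the tenth. Lost peaks had a median total signal of 1543 and kept peaks of 4490 in the same list, and the medians of the maximum were 12 and 26.5. Gained peaks, by contrast, were spread over the ranks of the DOX list. Between 37.9% and 45.2% of each decile was gained, and gained and kept DOX peaks had median totals of 1302 and 1339 and the same median maximum of 9. Among the 9371 no-DOX peaks whose total, scaled by the satellite ratio, still exceeded the weakest DOX peak, 55.5% (54.5 to 56.5) were lost, and with the mitochondrial ratio 45.7% of 6213 were. The share lost therefore moved with the assumed scale, and its part that belongs to depth cannot be told apart.

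At matched signal, peaks with a WT-SOX9 MYC-tag peak were lost less. Of the 1794 no-DOX peaks with a WT-SOX9 MYC-tag peak, 487 were lost (27.1%, 25.1 to 29.3), whereas the loss rates of their signal deciles would give 67.8%. Of the 32181 without one, 85.0% were lost. In the tenth decile 8.27% (6.17 to 11) of peaks with the tag were lost against 38.2% (36.4 to 40.0) without it, and in the fifth decile 47.9% against 93.8%. The tag list without DOX also overlapped MLL3/4 peaks, so the tagged class was split by it, a split chosen after the values were seen. The 1420 no-DOX peaks with the tag only in the DOX list were lost at 26.0% (23.8 to 28.3, deciles 71.0%), and the 374 with the tag in both tag lists at 31.6% (27.0 to 36.4, deciles 55.7%). The 1143 with the tag only without DOX were lost at 61.2% (58.4 to 64.0), near the 64.4% of their deciles. A gap by the tag was also found among peaks above the satellite-scaled minimum, at 14.9% of 1006 against 60.3% of 8365. In the DOX list the tag went with gain. Of 3675 DOX peaks with a MYC-tag peak 64.1% (62.6 to 65.7) were gained, and of 6868 without one 29.8% (28.7 to 30.9). In the highest decile of the DOX list, 48.0% with and 11.4% without the tag were gained.

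**Figure D1:**
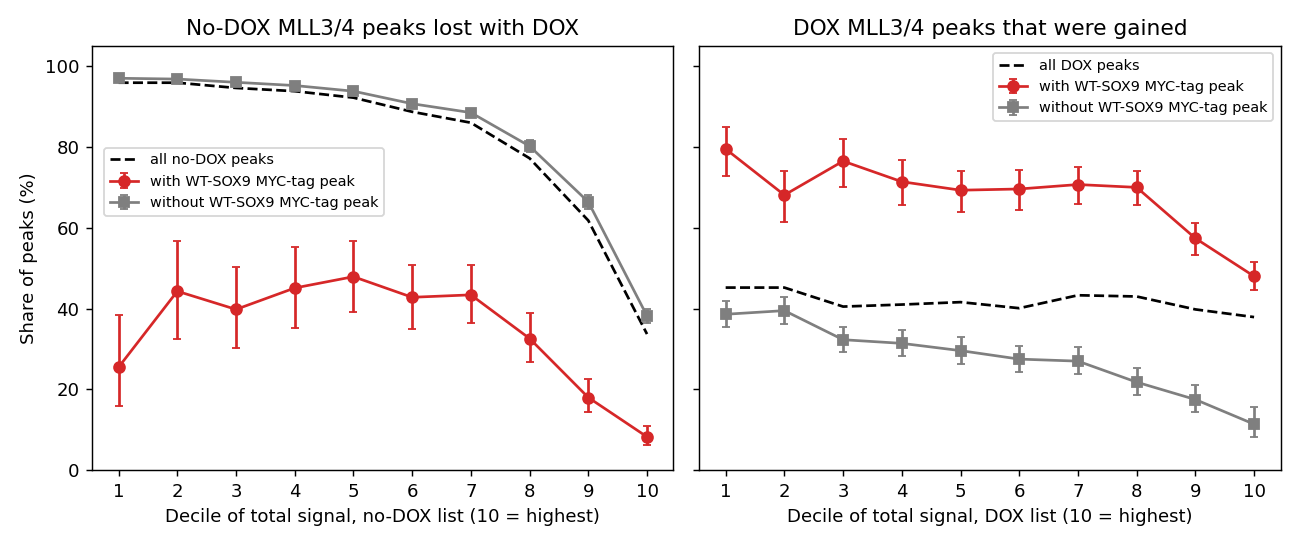
Share of no-DOX MLL3/4 peaks lost with DOX (left) and share of DOX peaks gained (right), in %, by decile of total signal within each list. Points are peaks with or without a WT-SOX9 MYC-tag peak, whether or not the tag list without DOX had one too, bars are 95% Wilson intervals and the dashed line is all peaks of the list. Loss reached 8.27% in the tenth decile with the tag and 38.2% without it.

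Kept peaks gave a second view, because both lists then hold a value. Over 6231 overlapping pairs the DOX total was a median of 0.320 times the no-DOX total (quartiles 0.194 and 0.594), near the satellite ratio of 0.255. With a WT-SOX9 MYC-tag peak the median was 0.542 (n = 1353) and without one 0.285 (n = 4878). Unscaled signal was higher with DOX in 725 pairs, of which 375 had the tag (27.7% of pairs with the tag and 7.18% of those without). A kept pair must pass the DOX minimum, which favours high ratios among weak peaks. In the highest no-DOX decile the medians were 0.290 (quartiles 0.194 and 0.461) for 465 pairs with the tag and 0.167 (0.117 and 0.232) for 1879 pairs without it. In lower deciles both medians were higher, at 0.567 and 0.341 in the eighth. Split by the tag list without DOX, pairs of the highest decile with the tag only with DOX had a median of 0.319 (n = 314), those with the tag in both tag lists 0.229 (n = 151), and those with it only without DOX 0.165 (n = 275). In the DOX list pairs with the tag had a median percentile of 80.1 after 82.5 without DOX, and pairs without the tag 44.6 after 85.1. Kept promoter peaks had a median ratio of 0.281 and other kept peaks 0.337. Across all pairs the totals of both lists had a Spearman correlation of 0.282, given as a description over peaks that share 2 libraries' depth.

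**Figure D2:**
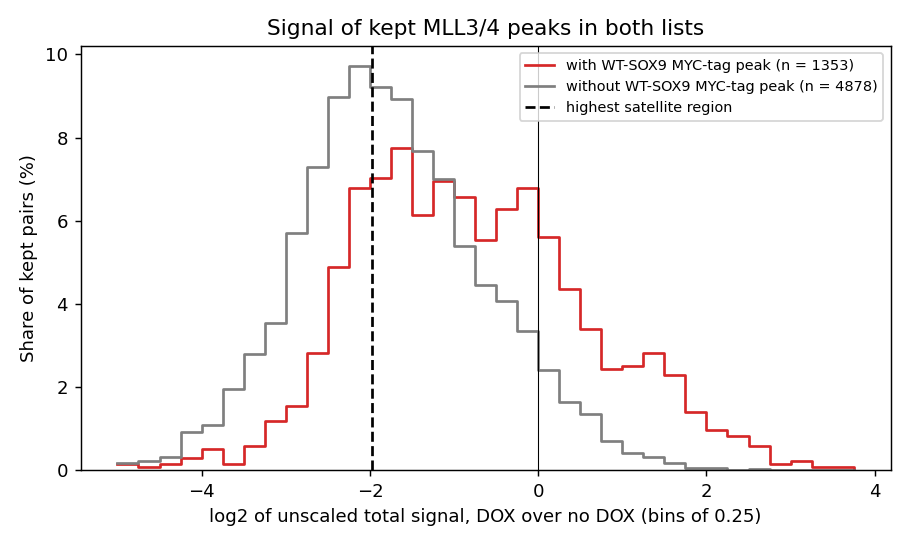
Distribution of the log2 ratio of unscaled total signal, DOX over no DOX, over kept MLL3/4 pairs with and without a WT-SOX9 MYC-tag peak, as % of pairs in bins of 0.25. The dashed line is the ratio of the highest satellite region (0.255 on the linear scale) and the thin line marks equal signal.

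The centres of kept peaks lay close together in both lists. The median distance between the centres of the maximum in both lists was 44 bp with the MYC tag and 38 bp without it. With the tag, a SOX word stood in 13.4% of the no-DOX windows and in 19.7% of the DOX windows of the same peaks, whereas the AP1 word went from 21.4% to 14.7%. Without the tag the SOX word stood in 7.65% and 9.08%, and the AP1 word in 20% and 16.9%.

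Gained peaks were less often promoters and lay farther from protein-coding starts than lost and kept ones. A promoter here is a peak within 1 kb of any annotated transcript start in GENCODE vM21. Of gained peaks 8.20% (7.42 to 9.05) were promoters, against 21.0% (20.6 to 21.5) of lost and 21.4% (20.4 to 22.5) of kept DOX peaks. Introns held 50.5% of gained, 41.1% of lost and 41.1% of kept peaks, and 37.9%, 35.0% and 35.2% were intergenic. More than 50 kb from the nearest protein-coding start lay 34.8% (33.4 to 36.2) of gained, 22.0% of lost and 21.4% of kept peaks. The median distance was 25339 bp for gained and 12841 bp for lost peaks. Windows reaching 200 bp out from the centre on both sides were CpG-rich (observed over expected CpG above 0.6 and GC content above 50%), the composition of CpG islands, in 12 of 4403 gained peaks (0.273%), in 8.83% of lost and in 7.80% of kept peaks. The median GC content was 41.9%, 47.1% and 46.6%. Lost and kept peaks had nearly the same gene context, and loss at promoters (81.5%) was close to the 82.7% given by their deciles. Among strong peaks loss was lower at promoters, with 25.7% (22.5 to 29.3) in the tenth decile against 35.5% elsewhere, and 50.8% against 64.5% in the ninth. Of CpG-rich peaks in the tenth decile 14.0% (9.13 to 20.8) of 136 were lost, against 34.5% of the rest.

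Sequence words also differed between the classes. A SOX word stood in 30.3% (28.9 to 31.6) of the gained 101 bp windows, 11.3% (10.6 to 12.2) of the kept DOX windows and 6.13% (5.86 to 6.42) of the lost windows, while windows 1 kb to each side gave 6.55%, 6.51% and 6.24%. Lost windows were thus at the level of their flanks. Centred on the no-DOX signal, as lost peaks are, kept windows held the SOX word at 8.95% (8.26 to 9.69) over a flank of 6.21%. At least 2 SOX words stood in 160 gained windows (3.63%) and in 57 lost ones (0.205%). Along 500 bp to each side of gained centres, SOX words went from between 38.2 and 46.3 per 1000 peaks and 50 bp bin in the outer bins to 176 and 181 in the bins next to the centre. Around lost centres every bin lay between 30.1 and 35.5. Gained windows had 41.6% GC and their flanks 42.2%, so base composition at the centre was close to that of the flank.

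**Figure D3:**
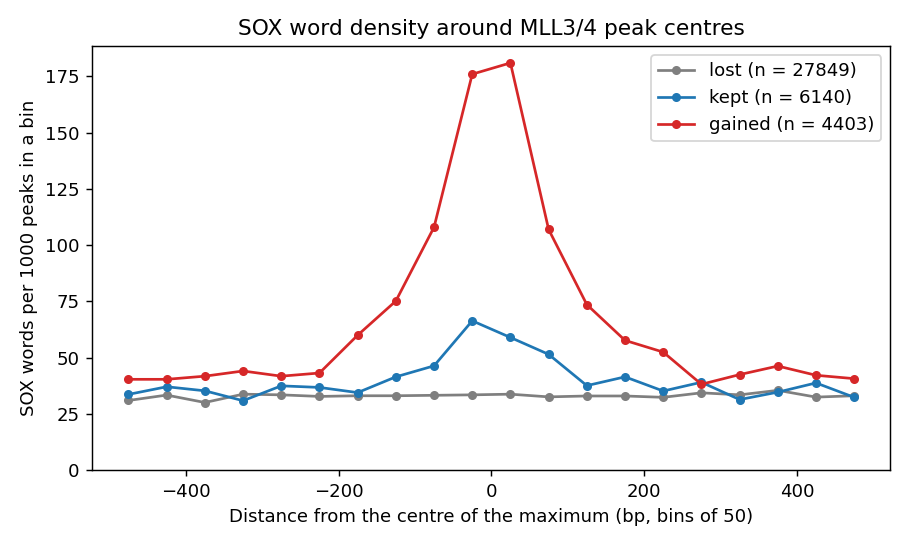
SOX words per 1000 peaks in bins of 50 bp, by distance from the centre of the maximum, for lost, kept (DOX list) and gained MLL3/4 peaks. Gained peaks reach 181 next to the centre and lost peaks stay between 30.1 and 35.5 in every bin.

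Facing SOX pairs were rare but concentrated. They stood in 50 of 4403 gained windows (1.14%, 0.862 to 1.49), in 14 of 6140 kept DOX windows and in 3 of 27849 lost windows, and in 2 of the 8806 flanking windows of gained peaks. Of the 50, 45 lay in gained peaks with a WT-SOX9 MYC-tag peak. By gap, 8 gained windows had 3 letters between the sites, 30 had 4 and 12 had 5, whereas 6 had 2 and 4 had 6. The outward arrangement of the same sites stood in 2, 6 and 3 gained windows at gaps of 3, 4 and 5. A tandem pair with 1 letter between stood in 25 gained windows and in 2 of their flanking windows.

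The AP1 word was more frequent in the no-DOX list than in gained peaks. It stood in 23.3% (22.8 to 23.8) of lost, 16.5% (15.6 to 17.4) of kept DOX and 5.36% (4.73 to 6.07) of gained windows, over flanks of 2.12%, 1.87% and 2.00%. Centred on the no-DOX signal, as lost peaks are, kept windows had it at 20.3% (19.3 to 21.3) over a flank of 1.71%, which is 11.9 times the flank beside 11 times in lost windows. Outside promoters 26.0% of lost windows had it. No-DOX peaks with the AP1 word were lost at 83.9% (83.1 to 84.7), against 81.6% from their signal deciles. The TEAD word GGAATG, bound by partners of YAP, stood in 9.75% of lost, 11% of kept and 8.52% of gained windows over flanks of 5.34% to 5.52%. The RUNX word AACCACA stood in 3.39%, 3.99% and 3.82%, above flanks of 2.41% to 2.53% in each class. The GATA words AGATAAC or AGATAAG stood in 2.60%, 2.33% and 2.86%, over flanks of 2.34%, 2.44% and 2.83%. The KLF/SP word GGGCGG, common at promoters, stood in 23.3% of lost promoter windows, in 6.69% of all lost windows and in 1.02% of gained ones, where the flank had 1.07%. A TP63 site, the motif of the epidermal master regulator, was found in 54 lost windows (0.194%, flank 0.0180%), in 10 kept DOX windows (0.163%) and in 3 gained ones (0.0681%, flank 0.0341%). The CTCF site stood in 4 gained windows (0.0908%, 0.0353 to 0.233, flank 0.216%), in 0.130% of kept DOX windows (flank 0.244%) and in 0.363% of lost ones (flank 0.282%). A missing word says only that these letters were not in the window.

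**Figure D4:**
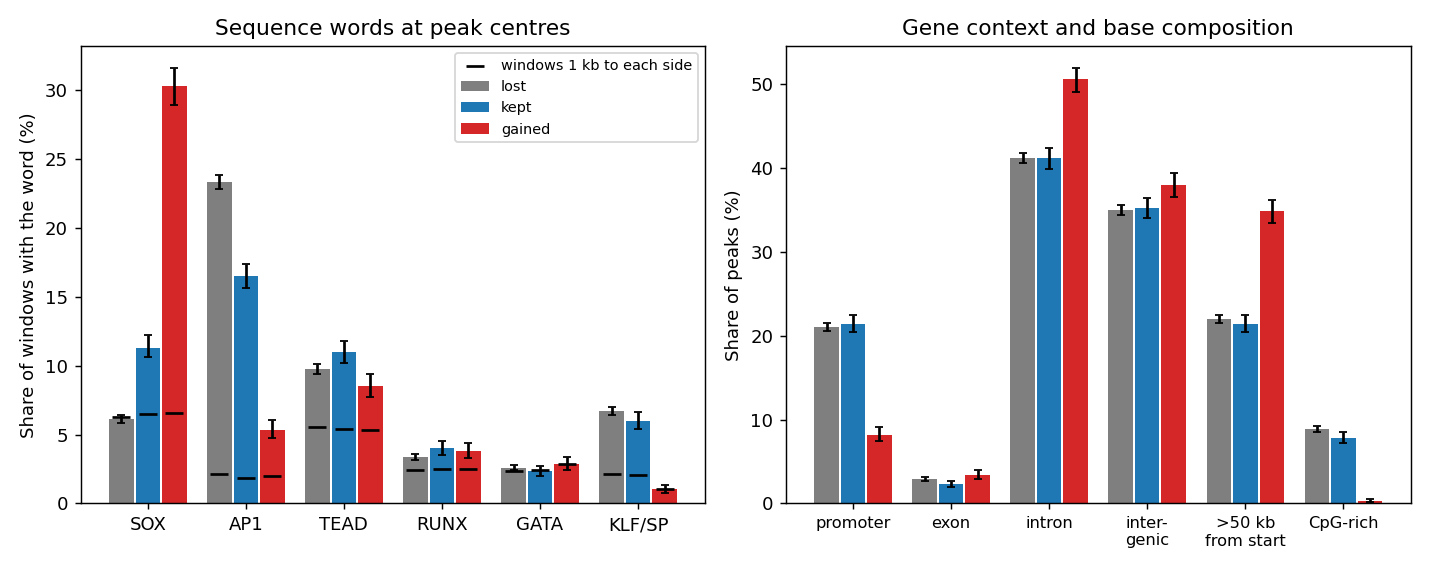
Left, share (%) of 101 bp windows with each sequence word for lost, kept (DOX list) and gained MLL3/4 peaks, with black dashes for windows 1 kb to each side. Right, share (%) of the same classes by gene context, distance and CpG content. Bars end in 95% Wilson intervals. The SOX word is in 30.3% of gained windows and the AP1 word in 23.3% of lost ones.

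Other lists were read at the same peaks, with the peaks moved 10 kb to each side as background. Of gained peaks 53.5% had a WT-SOX9 MYC-tag peak (background 0.534%), 6.45% one of dTA-SOX9, which lacks the transactivation domain, and 11 peaks one of dHMG-SOX9, which lacks the DNA-binding domain. The MYC-tag list without DOX overlapped 2 of the 4403. The MLL3/4 lists of dTA-SOX9 and dHMG-SOX9 each overlapped 211 gained peaks (4.79%), and 4067 (92.4%, 91.5 to 93.1) were in neither. In skin, where the same factor was induced in vivo, MLL3/4 lists overlapped 7.06% of gained peaks before induction (D0), 24.7% (23.4 to 26.0) after 1 week of DOX and 22.5% after 2 weeks, and SOX9 CNR of 1 week overlapped 26.7%. Gained peaks without a cultured MYC-tag peak overlapped the skin SOX9 list at 20.3% (18.6 to 22.1) and held a SOX word in 24.6%, against 32.3% and 35.2% for those with the tag. Gained peaks without a cultured MYC-tag peak thus held a SOX word more often than their flanks did (6.23%). Whether SOX9 was bound at them in culture was not tested.

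Part of the lost peaks were present in the other cultured states. A dTA-SOX9 MLL3/4 peak overlapped 49.9% and a dHMG-SOX9 peak 49.7% of them, beside 82.3% and 87.3% of kept peaks. Both lists held 9887 lost peaks (35.5%), 1 of them only held 4002 (dTA-SOX9) or 3954 (dHMG-SOX9), and neither held 10006 (35.9%). Replicate 1 of the untreated cells alone held 91.8% of lost and 98.6% of kept peaks. It is part of the pooled no-DOX list from which both classes were drawn, so these shares are no independent check. A WT-SOX9 MYC-tag peak overlapped 1.75% (1.60 to 1.91) of lost peaks and 21.3% of kept ones. The MYC-tag list without DOX overlapped 2.94% of lost and 11.4% of kept peaks. Whether its peaks are background of the tag antibody was not tested. Skin at D0 had an MLL3/4 peak at 40.1% of lost and 65.3% of kept peaks, and skin after 1 week at 30.1% and 69.3%. Kept peaks were stronger than lost ones, with median totals of 4490 and 1543, and these overlap shares were not matched for signal. No-DOX peaks with an MLL3/4 peak in skin at D0 were lost at 73.6% (deciles 76.1%). Those with one in skin after 1 week were lost at 66.4% (deciles 73.9%).

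The median distance from a gained peak to the nearest kept peak was 85640 bp, beside 56507 bp from a lost peak to the nearest kept peak. To the nearest lost peak, of which there are more, it was 27720 bp, and 33.5% (32.1 to 34.9) had a no-DOX peak within 10 kb. Loss also varied with clustering. When no-DOX peaks at most 12 kb apart were joined, single peaks were lost at 85.0% and peaks in the 147 clusters of at least 10 at 76.5% (74.5 to 78.4), where median signal was also higher (2278 against 1507). Every peak was lost in 12 of those 147 clusters. The cluster with most peaks, 62 over Sfi1 and Drg1, lies in a stretch of the reference with repeated gene copies. Next in size, Cd9 lost 21 of 25 peaks, Pkp1, a desmosomal plaque protein, 18 of 25, and Elmsan1 19 of 22. A cluster around Gm10722 on chromosome 9 lost 16 of 21 and Vmp1 13 of 21. Asprv1, an epidermal protease that matures filaggrin, lost 17 of 19, and a cluster on chromosome 12 lost 14 of 19. Lost shares by chromosome ranged from 76.9% on chromosome 19 to 86.0% on chromosome 17, and gained shares from 33.5% on chromosome 7 to 46.5% on chromosome 4.

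The 10 highest gained peaks all had a WT-SOX9 MYC-tag peak, and 0 of the 10 had a peak in the MLL3/4 lists of dTA-SOX9, dHMG-SOX9 or skin at D0. Untreated replicate 1 also held 0 of the 10, but it is part of the pooled no-DOX list that defines gain. After 1 week in skin 5 of them had an MLL3/4 peak and 6 a SOX9 peak. They ranked from 9 to 34 in the DOX list. By nearest protein-coding start they were assigned to Utp20, Pfn2, Mettl14, Tas2r144, Sema6a, Gm21961, Tcf4, Tfpi, Ccser1 and Grik2. Those at Mettl14, a subunit of the RNA m6A methyltransferase, and at Tcf4, a basic helix-loop-helix factor, were intronic and were shared with skin. Only 3 of the 10 held a SOX word in the central window. The 10 highest lost peaks lay nearest to Prkab1, Gfpt1, Sox9, Mmadhc, Rbfa, Basp1, Phlda1, Cpeb3, Rnf144a and Tlk1. All 10 were in the dTA-SOX9 and dHMG-SOX9 lists and 8 were in skin at D0. Untreated replicate 1 held all 10 too, but it is part of the pooled list that these peaks come from. The peak at Sox9 was the 1 of them with a WT-SOX9 MYC-tag peak, and it followed the coding exon as described above. Of the 10 highest kept peaks, 6 had a peak in all 7 other cultured lists and 8 in the MYC-tag list without DOX. They were nearest to Gm10800 (2 peaks), Gm10801, Rpusd4, Chl1, Muc15, Kcna4, Plec, Ccn2 and Slc5a12.

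Gained peaks gathered at some genes. With every peak assigned to the nearest protein-coding start within 100 kb, 2360 genes had a gained peak, 235 had at least 3, and 592 had DOX peaks but no peak without DOX. Chl1, a neural adhesion molecule, had 6 no-DOX peaks, of which 5 were lost, and 13 gained peaks, of which 11 had the MYC tag. Mitf, the melanocyte master regulator, had 11 gained peaks (8 with the tag) beside 2 kept. Ccser1 had 10 gained peaks, Sox6, a SOXD factor, had 9 with the tag at 8, and Clint1, Pde4d, Fggy, Exoc4 and Adgrv1 had 8 each. Nck2, an adaptor protein, had 7 gained peaks and 13 lost. Loss was broader. Of 9758 genes with an assigned no-DOX peak 9135 had a lost one and 5639 had no DOX peak left, and 42 genes with at least 10 no-DOX peaks kept 0 of them, some of these with gained peaks. Apart from Sfi1 (43 of 60 lost, in the repeated stretch), the genes with most lost peaks were Foxp1 (36 of 43), Arhgap26 (27 of 30), Nedd4l (26 of 38), Svil (25 of 31), Pard3 (24 of 34), Cald1 (24 of 32), Itpr1 (23 of 28), Mtap (23 of 26) and Tiam1 (22 of 25). Pard3 and Tiam1 act in cell polarity and junctions, and Cald1 and Svil bind actin. Among these 42, and chosen after their values were seen, Abca12, the lipid transporter of the skin barrier, lost 18 of 18 peaks and Gadd45a, a stress response gene, 18 of 18.

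Gene lists were read as the gene and 50 kb to each side, and their lost share is given beside the share that the signal deciles of the same peaks would give. The background over all peaks is 82.0% lost and 41.8% gained. Around 24 epidermal transcription factors 136 of 176 peaks were lost (77.3%, 70.5 to 82.8, deciles 80.4%) and 9 of 51 DOX peaks were gained (17.6%, 9.57 to 30.3). At 8 of the 22 genes with a no-DOX peak no peak was left. Over all genes it was 5639 of 9758, but by nearest start within 100 kb, an unlike rule that makes the shares not directly comparable. Trp63 had 12 no-DOX peaks, 6 of them lost, and 8 DOX peaks. Gata3 had 3, of which 1 was lost, but within 10 kb it had 1 peak, which was lost, and 0 DOX peaks. Tfap2a kept 4 of 4 and gained 3, whereas Klf4 lost 6 of 6, Grhl2 13 of 20, Zfp750 11 of 14 and Ovol2 5 of 6 with 2 gained. Around 7 keratins of basal and stressed cells, 27 of 38 peaks were lost (71.1%, deciles 75.1%) and 3 of 14 DOX peaks gained (21.4%). Krt5 lost 7 of 11 and gained 2, both with the MYC tag, Krt14 lost 10 of 12, Krt16 12 of 17 and Krt17 11 of 17. Neighbouring keratins share peaks at this distance. Around 20 differentiation genes 75 of 101 were lost (74.3%, deciles 75.1%) and 4 of 30 DOX peaks gained (13.3%, 5.31 to 29.7), with Dsc1 at 16 of 20 lost, Sprr3 at 14 of 17, Sprr1b at 13 of 16 and Ivl at 5 of 8.

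Around 15 basement membrane adhesion genes 121 of 172 peaks were lost (70.3%, 63.1 to 76.7, deciles 77.1%), and 18 of 70 DOX peaks were gained (25.7%), 11 of them with the MYC tag. Lama3, a laminin-332 chain, lost 20 of 29, Itgb6 16 of 21, and Itgb1 9 of 10 with 2 gained. Itgb4 lost 7 of 14 and gained 2, and Dst, a hemidesmosomal plakin, lost 4 of 8 and gained 4. Around 18 desmosome and junction genes 133 of 177 were lost (75.1%, deciles 75.3%) and 10 of 57 DOX peaks gained (17.5%, 9.82 to 29.4). Pkp1 lost 21 of 28, Cdh1 13 of 18 and Cdh3 13 of 17. Perp lost 12 of 14 and gained 3, Cldn1 lost 9 of 9 and gained 3, and Dsc3 gained 2.

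Around 21 HFSC transcription factors 113 of 146 peaks were lost (77.4%, deciles 80.6%, and 110 of 143 without Sox9) and 14 of 46 DOX peaks gained (30.4%, 19.1 to 44.8). Foxp1 alone held 51 no-DOX peaks, 41 of them lost, and 5 gained. Tcf7l1 lost 12 of 14 and Nfix 9 of 10, Tcf7l2 and Tbx1 gained 2 each, and Runx1 lost 7 of 10 and gained 1 with the tag. Around 25 HFSC surface and secreted genes 89 of 106 were lost (84.0%, deciles 83.6%) and 11 of 29 DOX peaks gained (37.9%). Ltbp1 lost 18 of 19 and gained 3, Col18a1 lost 15 of 17, Lrig1 13 of 18, and Lrrc15, with no peak before, gained 2, as did Itga8. The gained shares of both HFSC lists had intervals that included the 41.8% of all DOX peaks. Around 18 SOX and RUNX family genes, 71 of 84 were lost (84.5%, deciles 81.9%, and 68 of 81 without Sox9) and 16 of 29 DOX peaks gained (55.2%, 37.5 to 71.6), 13 with the MYC tag. Sox6 supplied 9 of the 16, Sox5 lost 10 of 10 and gained 2, Runx2 lost 10 of 11 and Sox15 7 of 8. Around 6 TLE co-repressor genes 15 of 18 were lost (83.3%, deciles 84.2%) and 3 of 6 gained (50.0%), all 3 at Tle1. Tle3 lost 6 of 7 and Tle4 4 of 5.

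In the signalling lists the lost share lay between 81.3% and 89.2%. Around 12 hedgehog genes 45 of 51 peaks were lost (88.2%, 76.6 to 94.5, deciles 81.9%) and 9 of 15 DOX peaks gained (60%, 35.7 to 80.2). Gli2 lost 12 of 12 and Gli1 6 of 6, while Sufu, a negative regulator of GLI, lost 15 of 17 and gained 5, Gli3 gained 3 and Shh 1. Around 10 AP1 and ATF genes 89 of 103 were lost (86.4%, deciles 81.5%) and 2 of 17 gained (11.8%, 3.29 to 34.3), with Junb at 17 of 18 lost, Fosl1 at 15 of 16 and Atf3 at 14 of 17. Around 12 EGF receptor and ligand genes 89 of 108 were lost (82.4%, deciles 77.3%) and 6 of 25 gained (24.0%). Tgfa lost 16 of 19, Egfr 15 of 18, and Nrg1 14 of 17 with 3 gained. Around 14 Notch genes 102 of 116 were lost (87.9%, deciles 82.8%) and 6 of 20 gained (30.0%). Notch2 lost 16 of 16, Maml3 18 of 20 and Hes1 11 of 13, and Maml2 gained 4. Around 17 WNT genes 61 of 75 were lost (81.3%, deciles 86.7%) and 4 of 18 gained (22.2%), all 4 with the tag. No peak was left at 11 of the 17. The 5639 of 9758 over all genes given above were counted by nearest start and are not directly comparable. WNT genes with no peak left were, among others, Wnt7b (9 of 9 lost), Wnt10a (8 of 8) and Wnt4 (6 of 6). Ctnnb1 lost 3 of 4, and the receptor gene Lrp6 lost 3 of 9 and gained 2. Around 19 TGF-beta and BMP genes 107 of 120 were lost (89.2%, 82.3 to 93.6, deciles 83.6%) and 11 of 23 gained (47.8%, 29.2 to 67.0), 9 with the tag. Smad3 lost 18 of 18, Smad2 lost 11 of 12 and gained 3, Tgfbr3 lost 9 of 10, and Bmpr1a gained 2.

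Around 17 mesenchymal and migration genes 52 of 60 peaks were lost (86.7%, deciles 83.4%) and 9 of 17 DOX peaks gained (52.9%, 31.0 to 73.8). Zeb2, a repressor of E-cadherin, lost 2 of 2 and gained 4, Vim lost 4 of 4 and gained 1 (within 10 kb it had 1 no-DOX and 0 DOX peaks), Sparc lost 12 of 14 and Axl 8 of 9. Around 19 genes of the MLL3/4 and SWI/SNF complexes 66 of 78 were lost (84.6%, deciles 87.2%) and 5 of 17 gained (29.4%). Arid1b lost 12 of 15, Ncoa6 6 of 6 and Ash2l 6 of 6 with 1 gained, and Smarca2 gained 2. The 15 housekeeping genes lost 73 of 86 (84.9%, deciles 81.3%) and gained 5 of 19 (26.3%), with Ppia at 11 of 11, Tubb5 at 11 of 13 and Rps16 at 9 of 12 lost.

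Markers of other cell types that a skin culture could hold had between 8 and 23 no-DOX peaks per list, and their part in the results was not tested. Around 8 melanocyte markers there were 16 no-DOX and 17 DOX peaks, 10 lost (62.5%, 38.6 to 81.5, deciles 80.9%) and 11 gained (64.7%, 41.3 to 82.7). Mitf accounted for 9 of the 11 and Tyrp1 and Sox10 for 1 each. Pmel had 3 no-DOX and 2 DOX peaks, Mlana 3 and 0, and Dct, Tyr and Kit had 0 in both lists. Around 8 fibroblast markers there were 8 no-DOX and 2 DOX peaks, 7 lost (87.5%, deciles 88.4%), with Col1a1 at 2 of 2 lost, Dcn at 1 of 1 kept, Twist2 at 2 of 2 lost and 1 gained, and Pdgfra and Lum at 0. Around 6 endothelial markers 15 of 16 peaks were lost (93.8%, deciles 85.4%), 10 of them at Pecam1, and the 1 DOX peak was kept. Around 7 immune and Langerhans markers 21 of 23 were lost (91.3%, deciles 84.4%), with Cd3e at 8 of 10, and 1 of 3 DOX peaks was gained, at Cd207. Around 5 Merkel cell markers 16 of 19 were lost (84.2%, deciles 78.9%), 11 at Krt8 and 5 at Krt20, and 1 of 4 DOX peaks was gained. The cells' basal keratinocyte markers Krt5, Krt14, Trp63 and Itga6 had peaks in both lists.

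**Figure D5:**
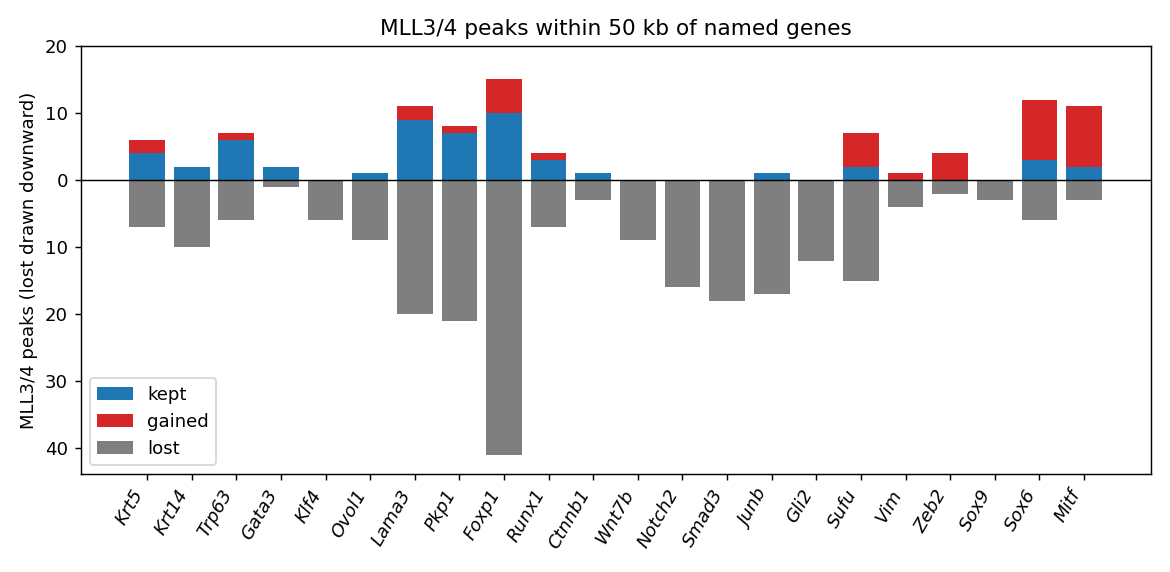
MLL3/4 peaks within 50 kb of named genes. Upward bars count kept no-DOX peaks and gained peaks, and downward bars count lost peaks. Sox6 and Mitf gained 9 each, Smad3 lost 18 of 18, and the 3 lost peaks at Sox9 follow its coding exons.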

How the data were processed

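CNR peaks of MLL3/4 were read from the pooled lists of cultured WT-SOX9 cells without and with DOX. Per the submitters' processing notes and the study's methods, the authors aligned reads to mm10 with Bowtie2 2.2.9, removed duplicates with Picard, used SAMtools 1.3.1, made tracks with deepTools 3.1.2 and called peaks with SEACR in stringent mode on pooled replicates of short fragments. The deposited MLL3/4 values are unscaled whole-number signal, that is total and maximum coverage of a peak. The MYC-tag lists and replicate 1 lists deposited by the authors hold RPKM and were used by overlap only. The depth behind the unscaled signal is unknown.

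Overlap was at least 1 bp, and the 3 mitochondrial peaks of each list were left out. Genes came from GENCODE vM21 and sequence from GRCm38.p6, the NCBI name of mm10. Windows were centred on the region of maximum signal. No test was run, because each group had 1 pooled list. Named genes were the 10 highest gained, lost and kept peaks, the 10 genes with most gained or lost peaks, the 3 with most gained and most lost in each gene list, and Gata3, Trp63, Krt5, Ctnnb1, Vim, Runx1 and Sox9. Some genes that this rule would name are not reported here. The lists and members were chosen with earlier results of these data known. Python 3.11.15, pandas, numpy and scipy were used, and overlap and word searches were tested on simulated peaks.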

Additional observations from a re-analysis of the deposited data

How the results depend on the processing

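The MLL3/4 loss and gain rest on lists of unequal length whose depth is unknown. With lists of equal size 58.3% were lost and 57.6% gained, with the 50% of highest total signal 83.8% and 47.8%, and with replicate 1 alone as the untreated list 84.0% and 40.5%. Merging peaks within 500 bp gave 80.8% lost. The satellite-scaled minimum, an alternative chosen after seeing the data, gave 55.5% lost. With promoters of 2.5 kb the promoter shares of lost, kept and gained peaks were 30.4%, 30.9% and 16.4%, and with lists of equal size 17.8%, 22.7% and 10.9%. The SOX word shares were 12.2%, 19.7% and 44.8% in windows of 100 bp to each side, and 5.72%, 9.39% and 26.5% with lists of equal size. With the latter, the MYC-tag overlaps were 2.94%, 20% and 45.8%. Where these shares were recomputed, with the wider promoter or window, an overlap of 50% for the tag or lists of equal size, gained peaks kept the lowest promoter share and the highest SOX word share and MYC-tag overlap. An overlap of 50% moved the lost share to 82.2% and the gained share to 42.3%. Counting peaks within 10 kb of a gene in place of 50 kb left 8 of 14 locus counts within 1.5 times of the first and lowered the other 6 further, at Gata3 and Vim in both lists, Krt5 with DOX and Ctnnb1 without. No paired analysis was possible because each group had 1 pooled list, and a list of a single replicate was read only for the untreated cells.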
